A study of Mus musculus with 7 samples.

Results

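Cells that run short of oxygen stabilize the hypoxia-inducible factors HIF-1 and HIF-2, which bind a short core motif near their target genes and switch on glucose uptake, glycolysis, angiogenic signals and feedback regulators. In glioblastoma this response is known from poorly perfused tumor, around necrosis in particular, and part of the same program also runs in tumor cells that ferment glucose with oxygen present. Measured here in endpoint mouse tumors were 10 genes of that response: Vegfa, Slc2a1, Car9, Ndrg1, Bnip3, Egln3, Adm, Ldha, Pgk1 and Ankrd37. They were chosen by name, with earlier results of these data known. All 10 were found as rows of the deposited table, which holds 19257 named genes. All 10 also had a mean normalized count of at least 10, the filter that left 14782 genes for testing.

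Bulk tumor RNA-Seq was available from 7 brains, 3 of the 3xCR group (replicates 2, 3 and 4) and 4 of the GPC6 group (replicates 1 to 4). Both groups carried tumors induced by in utero electroporation of a single construct with Cas9 and guides that target tumor suppressors (Trp53 and Nf1 are 2 of these), together with a piggyBac transposon system that carried a GFP reporter, GPC6 or both. The 3xCR group, labelled control in its genotype, received nothing further, and in the GPC6 group the transposon overexpressed GPC6, a membrane-anchored heparan sulfate proteoglycan. No brain without a tumor was among the libraries, animals were of CD-1 and C57BL/6 backgrounds and of either sex, and the age of each animal at endpoint is not given in the sources used here. Tumor tissue was taken under a fluorescence microscope. Because it was sequenced in bulk, each library can hold vessels, glia, neurons and immune cells beside the tumor cells. In such bulk tissue, fewer cells of a type and less RNA per cell cannot be told apart.

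The libraries held 7197692 to 18879762 reads on genes, and the 3 reads that a count of 0 allows correspond to 1.64 to 4.64 normalized counts. Gpc6 itself was 126 to 226 normalized counts in 3xCR and 263 to 5084 in GPC6 tumors without overlap (p = 0.057 in an exact permutation test, two-sided, which is the least that 3 against 4 libraries can give), but the library labelled GPC6 replicate 2 (263) lay close to the 3xCR level. Trp53 averaged 463 ± 290 (SD, n = 3) and 477 ± 216 (SD, n = 4), and Nf1 535 ± 179 and 651 ± 198. GPC6 replicate 1 stood apart in tissue content. Its summed level of 12 neuronal markers was 73669 normalized counts, against 8332 to 40518 elsewhere, and its sum of 10 proliferation markers was 658, against 5238 to 14427. Values without GPC6 replicate 1, or without both, are given beside the results that they moved most.

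The core motif of the hypoxia response element was looked up in the 250 bases before the RefSeq start of each gene (build GRCm38.p6), in its forms ACGTG and GCGTG and on both strands, which may overlap. Of the 9 genes with an entry, 7 had ACGTG and 8 had either form, and the counts of matches were 5 each for Ldha and Bnip3, 4 for Ankrd37, 2 each for Pgk1, Slc2a1 and Adm, 1 each for Car9 and Egln3 and 0 for Vegfa. The Vegfa entry used, 1 of 2, starts 1021 bases from the principal GENCODE start, whereas the other starts lie within 60 bases of theirs, so its count does not describe the window before that principal start. Ndrg1 has no entry. Of all 32851 such windows 16.6% held ACGTG and 38.6% held either form. The share of G and C was 50.8% (Egln3) to 72.4% (Bnip3) in the 9 windows, beside a median of 52.4% over all windows. The comparison was not adjusted for this share or for the choice of known hypoxia genes. The windows of 4 genes are shown because they belong to the member closest to the common pattern (Pgk1), to 2 members with wide swings between tumors (Ldha and Adm) and to a member with a narrow swing (Bnip3). Capitals mark the matches, read on the strand of the gene from 5′ to 3′.
Pgk1, chrX:106186850-106187099, plus strand: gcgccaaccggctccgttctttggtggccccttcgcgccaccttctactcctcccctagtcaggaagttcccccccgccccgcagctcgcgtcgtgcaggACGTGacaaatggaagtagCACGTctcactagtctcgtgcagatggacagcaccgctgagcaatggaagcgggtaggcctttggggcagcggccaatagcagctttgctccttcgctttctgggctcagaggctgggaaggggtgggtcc
Ldha, chr7:46845554-46845803, plus strand: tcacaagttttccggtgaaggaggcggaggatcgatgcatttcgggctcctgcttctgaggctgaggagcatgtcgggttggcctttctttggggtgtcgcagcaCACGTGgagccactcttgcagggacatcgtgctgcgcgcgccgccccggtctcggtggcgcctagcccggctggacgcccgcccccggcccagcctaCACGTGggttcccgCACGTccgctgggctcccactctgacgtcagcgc
Adm, chr7:110627407-110627656, plus strand: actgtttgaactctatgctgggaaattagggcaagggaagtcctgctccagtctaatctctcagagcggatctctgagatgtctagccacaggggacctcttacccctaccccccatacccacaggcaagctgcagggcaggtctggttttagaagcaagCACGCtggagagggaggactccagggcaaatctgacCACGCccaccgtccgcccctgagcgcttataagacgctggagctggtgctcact
Bnip3, chr7:138909507-138909756, minus strand: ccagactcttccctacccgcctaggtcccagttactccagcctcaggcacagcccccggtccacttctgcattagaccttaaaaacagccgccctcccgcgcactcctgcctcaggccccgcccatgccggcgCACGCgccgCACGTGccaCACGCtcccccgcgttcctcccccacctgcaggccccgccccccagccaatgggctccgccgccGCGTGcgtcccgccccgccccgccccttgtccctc
The Pgk1 matches lie 150 to 146 and 131 to 127 bases before the start, and those of Ldha form 2 palindromes at 145 to 140 and at 48 to 43 bases, with a single match at 34 to 30 bases. Adm holds GCGTG alone, at 90 to 86 and at 54 to 50 bases. These are matches of letters and say nothing on binding in the tumors.

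None of the 10 genes passed the test between groups in limma. At an adjusted p under 0.05 there were 0 of 10, against 0% of all genes tested, and at an unadjusted p under 0.05 there were again 0 of 10, against 4.66% of all genes (689 of 14782). In 0 of the 10 did the groups fail to overlap, where 6.32% of all genes did (2.8% higher and 3.52% lower in GPC6). The log2 fold change of GPC6 over 3xCR was above 0 for 4 of the 10 and for 48.3% of all genes. The median log2 fold change was -0.068 over the 10 and -0.019 over all genes tested. With reads recovered from the table, the quasi-likelihood test of edgeR called 0 of the 10 at an adjusted p (0% of all genes) and 0 at an unadjusted p under 0.05 (6.7%), and DESeq2 called 0 (0.0609%) and 0 (12.1%), with no adjusted p given for Adm, Ankrd37 and Car9. The count above 0 rested on single libraries, as it was 9 of 10 without 3xCR replicate 3 8 of 10 without GPC6 replicate 1 and 8 of 10 without GPC6 replicates 1 and 2, and no member had an adjusted p under 0.05 in any of these.

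**Figure D1:**
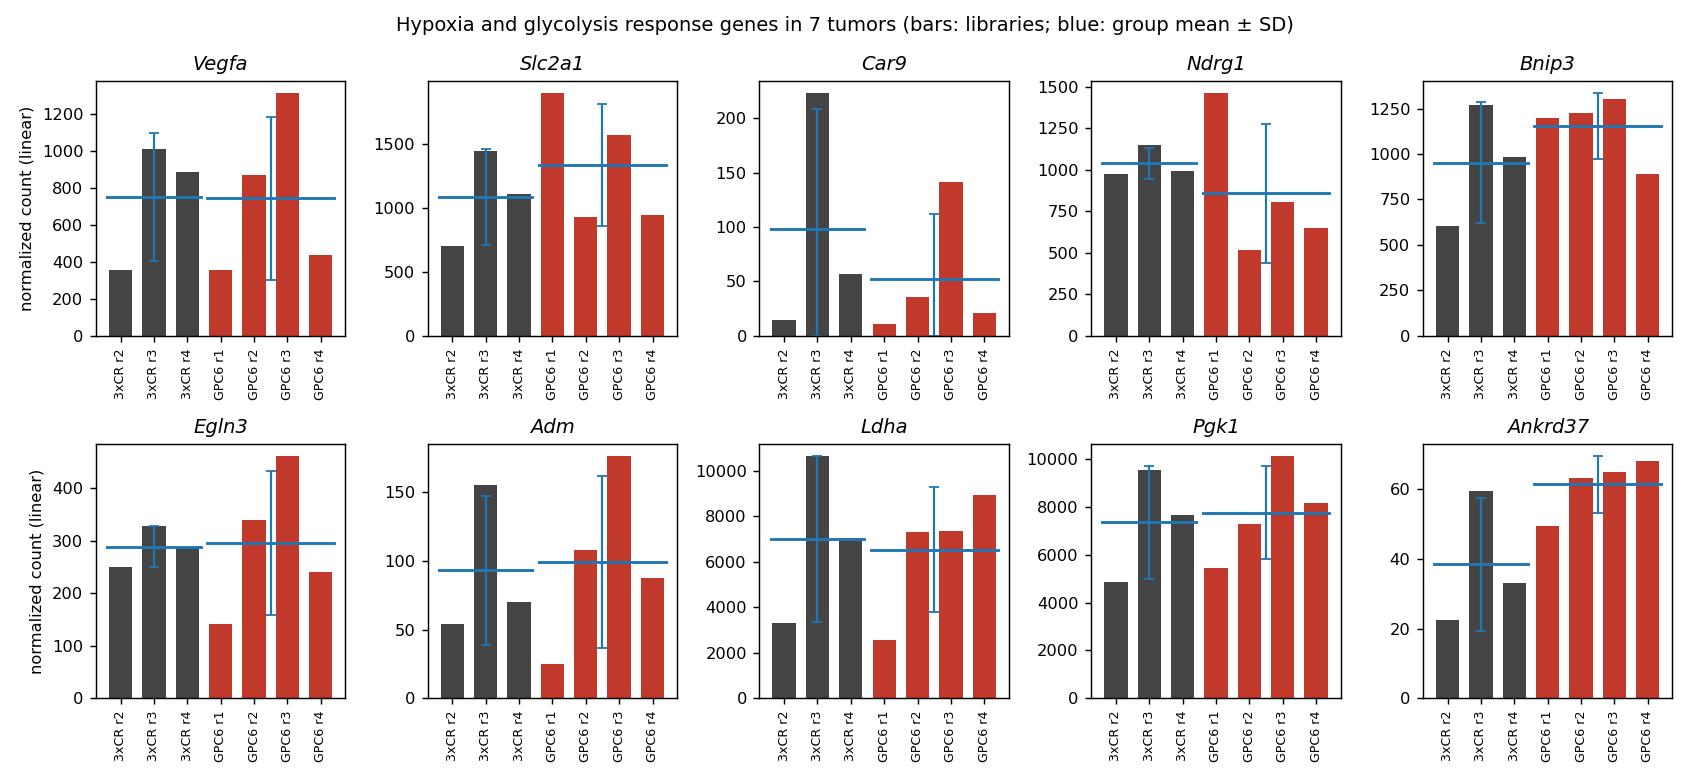
Normalized counts (linear axis from 0) of the 10 genes in 3 3xCR libraries (grey bars) and 4 GPC6 libraries (red bars), with group mean ± SD in blue, error bars of Car9 being cut at 0. The groups overlap in every panel, 3xCR replicate 3 and GPC6 replicate 3 are high in most, and 3xCR replicate 2 and GPC6 replicate 1 are low in most.

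Vegfa and Adm encode the secreted signals of the response. Vegfa, the main growth factor for endothelial cells (chromosome 17, 46016993 to 46032369 of GRCm38, as all gene positions here), had 355, 1009 and 884 normalized counts in the 3xCR tumors (replicates 2, 3 and 4, the order used throughout) and 355, 868, 1314 and 437 in the GPC6 tumors (replicates 1 to 4). The lowest tumors of both groups were thus at the same level, and the range within a group was 2.84-fold in 3xCR and 3.70-fold in GPC6. The means were 749 ± 347 (SD, n = 3) and 744 ± 442 (SD, n = 4), which gives a log2 fold change of -0.071 (standard error, SE, 0.54, 95% confidence interval -1.33 to 1.19, limma adjusted p = 0.976). Adm, the precursor of the vasodilator peptide adrenomedullin (chromosome 7, 110627661 to 110629820), had 54.3, 155 and 70.4 in 3xCR and 24.7, 108, 177 and 87.4 in GPC6 tumors. It spanned 7.14-fold within the GPC6 group alone, from replicate 1 to replicate 3. Its log2 fold change was -0.065 (SE 0.69, adjusted p = 0.983), and the 16 reads behind the lowest value give a counting interval of 14.1 to 40.2 normalized counts (exact Poisson, 95%).

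Among genes of glucose uptake and pH control, Car9 varied most. It encodes carbonic anhydrase 9, an enzyme of the outer cell surface that handles the acid of glycolytic cells and is widely used as a hypoxia marker (chromosome 4, 43506966 to 43513729). Its normalized counts were 14.3, 223 and 56.6 in 3xCR and 10.8, 35.6, 141 and 20.6 in GPC6 tumors. The span was 15.7-fold among the 3xCR tumors and 20.6-fold over all 7, and its residual standard deviation of 1.71 on the log2 scale was larger than that of 95.5% of all genes tested. The lowest value rests on 7 reads (4.35 to 22.3 normalized counts, exact Poisson interval), far below those of 3xCR replicate 3 and GPC6 replicate 3. The group means were 98.0 ± 110.5 (SD, n = 3) and 52.0 ± 60.2 (SD, n = 4), and the log2 fold change of -0.78 (SE 1.09, 95% confidence interval -3.29 to 1.74, limma adjusted p = 0.842) turned to 0.19 without 3xCR replicate 3. Leaving out GPC6 replicate 1 gave -0.27, and leaving out GPC6 replicates 1 and 2 gave -0.072. A difference of severalfold in either direction is therefore within the interval for this gene.

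Slc2a1, the glucose transporter GLUT1 of tumor cells and of the endothelium of the blood-brain barrier (chromosome 4, 119108711 to 119137983), followed another order. It had 698, 1442 and 1111 normalized counts in 3xCR and 1897, 927, 1571 and 942 in GPC6 tumors. GPC6 replicate 1, the lowest library for Car9, Adm, Ldha and Egln3, was the highest for Slc2a1. The log2 fold change was 0.29 (SE 0.36, 95% confidence interval -0.54 to 1.12, limma adjusted p = 0.821). It was 0.099 without GPC6 replicate 1 and 0.0054 without 3xCR replicate 2. The same library also had the highest counts of the barrier transporters Slco1a4 (475, against 58.0 to 184 elsewhere) and Abcb1a (379, against 80.0 to 211), which were picked after their values were seen. Other endothelial markers went both ways in that library. Kdr (119) was the lowest of the 7, and Cldn5 (346), Pecam1 (206), Cdh5 (78.8), Esam (187) and Emcn (21.6) were each the second lowest. Ly6c1 (379) was the third lowest. Tek (92.7), however, was the highest of the 7, and Flt1 (371) was the second highest. The sum of the 11 endothelial markers was 2654 there and 1332 to 3602 elsewhere. The part of barrier vessels in the Slc2a1 level was not tested.

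Ldha and Pgk1, the glycolytic members, were the most abundant. Ldha encodes the lactate dehydrogenase subunit that favors lactate formation (chromosome 7, 46841475 to 46855627) and had 3317, 10641 and 7029 normalized counts in 3xCR and 2559.6, 7294, 7341 and 8940.5 in GPC6 tumors. GPC6 replicate 1 lay well below the other GPC6 tumors, near 3xCR replicate 2, and the 3xCR tumors spanned 3.21-fold. Its log2 fold change was -0.087 (SE 0.54, limma adjusted p = 0.971). The ratio of Ldha to Ldhb reads, Ldhb being the subunit of oxidative tissue and neurons, ran from 0.958 to 6.04 in 3xCR and from 0.344 to 4.19 in GPC6 tumors and was lowest in GPC6 replicate 1 and next lowest in 3xCR replicate 2. Pgk1, phosphoglycerate kinase of the first ATP-forming step of glycolysis (chromosome X, 106187100 to 106203699), had 4859, 9538 and 7671 in 3xCR and 5445, 7278, 10129 and 8159.6 in GPC6 tumors. It stayed within 2.08-fold over the 7 tumors, and its log2 fold change was 0.095 (SE 0.33, 95% confidence interval -0.66 to 0.85, adjusted p = 0.941).

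Bnip3, a mitochondrial protein that promotes mitophagy (chromosome 7, 138890836 to 138909519), had 605, 1269.7 and 986 normalized counts in 3xCR and 1199, 1225, 1302 and 889.9 in GPC6 tumors. 3xCR replicate 2 lay furthest below the rest, and the log2 fold change was 0.33 (SE 0.29, limma adjusted p = 0.759), or 0.030 without that library. Egln3, the prolyl hydroxylase PHD3 that marks HIF subunits for degradation and is itself induced (chromosome 12, 54178981 to 54203860), had 249, 328 and 289 in 3xCR and 141, 339.9, 461 and 241 in GPC6 tumors. The 3xCR values lay inside the GPC6 range, with a log2 fold change of -0.088 (SE 0.40, adjusted p = 0.958). The signs of Vegfa, Adm, Egln3 and Ldha all turned to above 0 without GPC6 replicate 1, at log2 fold changes of 0.22, 0.49, 0.22 and 0.32.

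Ankrd37, an ankyrin repeat gene known as a direct HIF-1 target (chromosome 8, 45996902 to 46005707), had the largest positive log2 fold change of the 10. It had 22.5, 59.5 and 33.1 normalized counts in 3xCR and 49.5, 63.2, 64.8 and 67.9 in GPC6 tumors. The 3 highest values were of GPC6 tumors and the 2 lowest of 3xCR tumors, and 3xCR replicate 3 lay above GPC6 replicate 1. The means were 38.4 ± 19.1 (SD, n = 3) and 61.3 ± 8.15 (SD, n = 4), a log2 fold change of 0.76 (SE 0.42, 95% confidence interval -0.20 to 1.72, limma adjusted p = 0.730). Without 3xCR replicate 3 the log2 fold change was 1.13, at an unadjusted p of 0.037 and an adjusted p of 0.902 in limma. It was 0.45 without 3xCR replicate 2 and 0.26 with library weights (limma adjusted p = 0.565). At this depth 24 to 41 reads stood behind the 2 lowest values.

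Ndrg1, a stress-induced gene that is also a protein of myelinating glia (chromosome 15, 66929318 to 66969640), had 977, 1148 and 992 in 3xCR and 1462, 517, 808 and 648 in GPC6 tumors. The 3xCR tumors stayed within 1.18-fold, and 3 of the 4 GPC6 tumors were below all of them while GPC6 replicate 1 was the highest of the 7. The log2 fold change was -0.38 (SE 0.35, 95% confidence interval -1.19 to 0.42, limma adjusted p = 0.761). Without GPC6 replicate 1 it was -0.68, at an unadjusted p of 0.018 and an adjusted p of 0.905, and without GPC6 replicate 2 it was -0.18. Of the 10 markers of mature oligodendrocytes 9 had a log2 fold change below 0, with a median of -0.67 and none at an unadjusted p under 0.05. Their summed level was 67024 to 84250 in 3xCR tumors and 99770, 113980, 24924 and 15919 in GPC6 replicates 1 to 4, so GPC6 replicate 2 had the highest marker sum and the lowest Ndrg1. The part of oligodendrocytes in the Ndrg1 level was not tested.

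**Figure D2:**
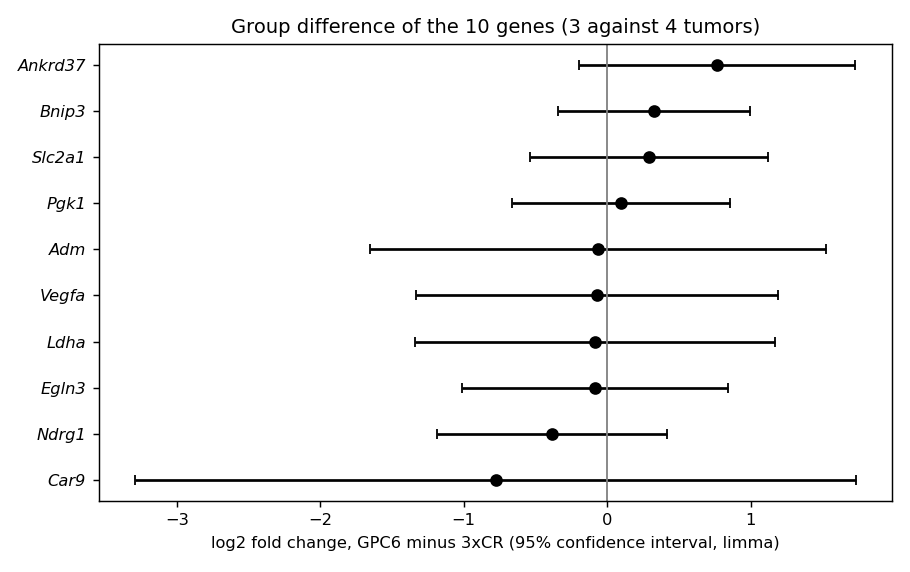
Log2 fold change of GPC6 over 3xCR tumors for each of the 10 genes (points) with the 95% confidence interval of limma (bars). Every interval includes 0, the estimates run from -0.78 for Car9 to 0.76 for Ankrd37, and the interval of Car9 is the widest.

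Per kilobase of annotated exon the levels of the members spanned a wide range, and 4 of the 9 neighboring pairs kept their order in every library. The mean normalized count per kilobase over the 7 libraries was 3379 ± 867 (SD, n = 7) for Pgk1, 2034 ± 872 for Ldha, 472 ± 113 for Bnip3, 349.9 ± 121 for Slc2a1 and 174 ± 86.6 for Vegfa. It was 142 ± 48.0 for Ndrg1, 110.0 ± 37.4 for Egln3, 59.7 ± 33.5 for Adm, 33.5 ± 11.3 for Ankrd37 and 31.1 for Car9, whose SD over the libraries exceeded its mean. Pgk1 lay above Ldha, Ldha above Bnip3, Slc2a1 above Vegfa and Egln3 above Adm in 7 of 7 libraries. The pairs Bnip3 and Slc2a1 as well as Adm and Ankrd37 kept their order in 6, Vegfa and Ndrg1 as well as Ndrg1 and Egln3 in 5, and Ankrd37 and Car9 in 4 of 7 libraries, so these neighbors did not keep 1 order in every tumor. Levels per kilobase use the union of annotated exons, which need not be the transcript present.

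The 10 genes tended to be high or low in the same tumors, of either group. GPC6 replicate 3 was the highest or second highest of the 7 libraries for 8 of the 10 genes and 3xCR replicate 3 for 7 of the 10. At the other end, 3xCR replicate 2 was the lowest or second lowest for 8 and GPC6 replicate 1 for 6. All 10 genes were above their own mean in 3xCR replicate 3, and 9 of 10 in GPC6 replicate 3. The median deviation of the 10 genes from their own means, on the log2 scale, was -0.76, 0.37 and 0.060 for the 3xCR tumors and -0.67, 0.25, 0.45 and -0.21 for the GPC6 tumors. Both groups thus held a tumor at each end. The same counts were not taken over all genes tested, so they describe the 10 genes only.

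**Figure D3:**
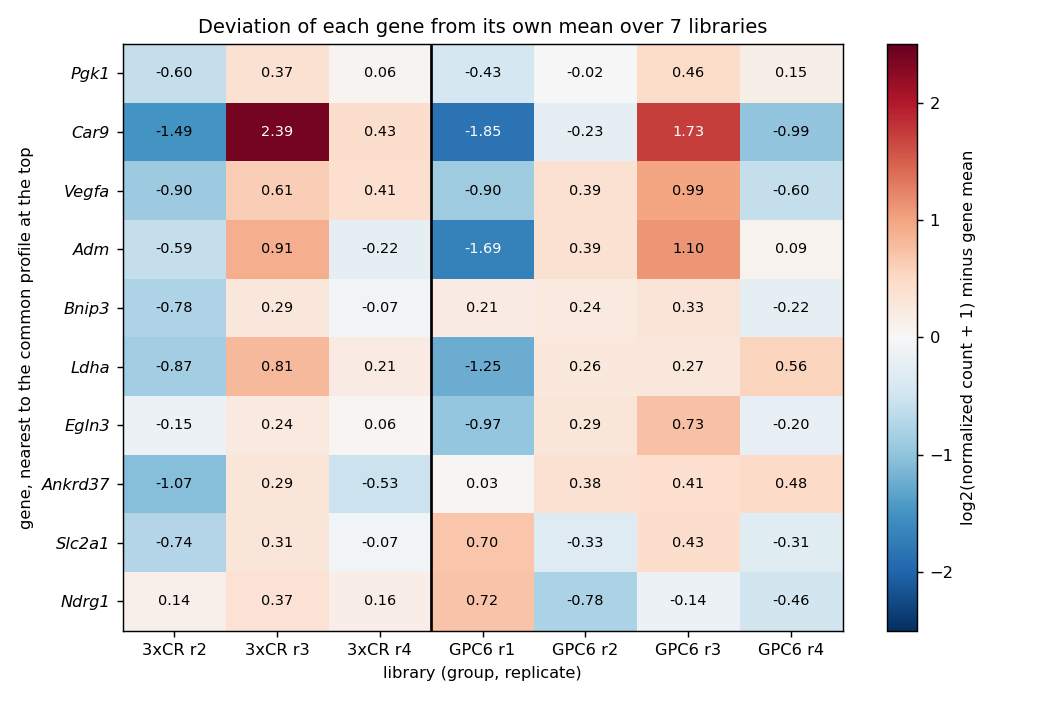
Heat map of log2(normalized count + 1) minus the mean of the gene over 7 libraries, with the value printed in each cell, genes ordered by closeness to the common profile and the black line dividing 3xCR from GPC6. Car9 runs from -1.85 in GPC6 replicate 1 to 2.39 in 3xCR replicate 3, and Slc2a1 and Ndrg1 at the bottom are high in GPC6 replicate 1, where most others are low.

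Closeness to the common profile was measured as the root mean square difference, over the 7 libraries, between the standardized log2 values of a gene and the standardized mean of the 10. It was 0.299 for Pgk1, 0.354 for Car9, 0.406 for Vegfa, 0.565 for Adm, 0.61 for Bnip3, 0.635 for Ldha, 0.708 for Egln3, 0.743 for Ankrd37, 0.915 for Slc2a1 and 1.40 for Ndrg1, where the median of all genes tested was 1.33. Since each member is part of the mean, these values describe the spread within the set and test nothing. Ndrg1 was no closer to the profile than a typical gene.

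The 5 other genes closest to the profile were Mmrn2, Esam, Robo4, Esm1 and Eno1b, with differences of 0.316, 0.334, 0.359, 0.362 and 0.402. The first 4 are known from endothelial cells. Mmrn2 is a matrix protein of vessels, Esam an adhesion molecule of their junctions, Robo4 a guidance receptor of vessels, and Esm1 a secreted proteoglycan of sprouting tip cells that VEGF-A induces. Esm1 had the widest range, with 3.84, 159 and 41.4 normalized counts in 3xCR and 4.64, 45.4, 94.0 and 50.4 in GPC6 tumors, a span of 41.5-fold over the 7. It was thus lowest in 3xCR replicate 2 and GPC6 replicate 1 and highest in the third replicate of either group, as Car9 was. Esam had 109, 296 and 244 in 3xCR and 187, 266, 349.5 and 242 in GPC6 tumors. Mmrn2 ran from 16.4 to 93.0 and Robo4 from 33.4 to 164 over the 7 libraries. Eno1b, an enolase gene of glycolysis, had 4040.2, 7950.4 and 5278 in 3xCR and 3563, 6512, 7488 and 5669.8 in GPC6 tumors. It is a near-identical copy of Eno1, which was counted 75.8 to 134 times lower, so the reads of the main enolase may be booked under either name. None of the 5 passed the test between groups, with limma log2 fold changes of 0.20, 0.35, 0.39, 0.070 and 0.018 and adjusted p-values of 0.928, 0.803, 0.847, 0.990 and 0.990.

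**Figure D4:**
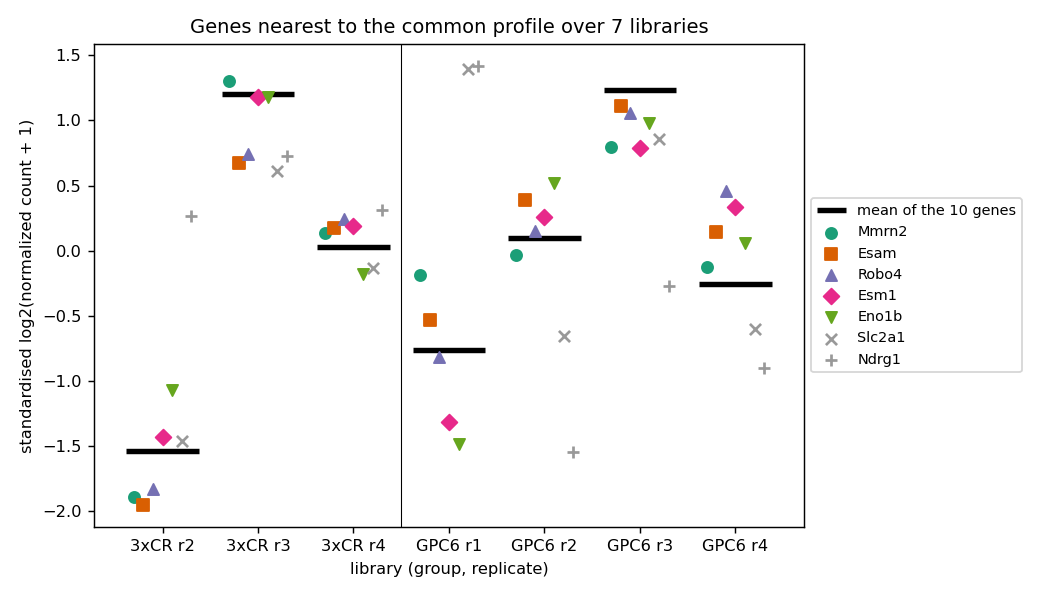
Standardized log2(normalized count + 1) of the 5 genes nearest to the common profile (colored symbols), of Slc2a1 and Ndrg1 (grey crosses) and of the mean of the 10 genes (black bars) in each library. The colored symbols follow the bars, with root mean square differences over the 7 libraries of 0.316 to 0.402. Single symbols can lie further off, as Eno1b (-1.485) and Mmrn2 (-0.191) do in GPC6 replicate 1 (bar at -0.763). The crosses lie above the bar in that library.

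Marker lists of other cell types were set beside this order. The sum of 11 endothelial markers was 1332, 2852 and 3602 in 3xCR tumors and 2654, 2508, 3288 and 2508 in GPC6 tumors. It was lowest in 3xCR replicate 2, where most of the 10 genes were low, and the groups overlapped. The sum weights abundant markers most. The mean log2 deviation of the 11 markers from their own means was also lowest in 3xCR replicate 2 (-0.89). It was highest in GPC6 replicate 3 (0.50), above 3xCR replicate 4 (0.21), which had the highest sum. The sum of 8 mural markers was 2876 to 3611 in 3xCR and 2043 to 5699.6 in GPC6 tumors. Of the 6 neutrophil markers, S100a8, S100a9, Retnlg and Cxcr2 were at 0 to 34.0 normalized counts in every library, and the sum was mostly Csf3r (198 to 523) and Mmp9, which was 916 in 3xCR replicate 4. The sum of 8 markers of infiltrating monocytes and macrophages, cells that also use glycolysis, was 3330.4 to 35059 in 3xCR and 628 to 12358 in GPC6 tumors. That sum was mostly Lyz2 (388 to 29595 normalized counts) in every library. The part of these cell types in the levels of the 10 genes was not tested.

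The sensors and HIF subunits lie upstream of the response. Of 10 genes of oxygen sensing and HIF subunits 0 passed at an unadjusted p under 0.05 (4.66% of all genes did), 4 had a log2 fold change above 0 (48.3% of all genes), and the median was -0.055. Arnt2, a partner subunit of neural cells, was the most abundant and had 1714 ± 801 (SD, n = 3) and 2822 ± 1505 (SD, n = 4), a log2 fold change of 0.63 that was 0.32 without GPC6 replicate 1 and 0.076 without GPC6 replicates 1 and 2. Epas1, which encodes HIF-2 alpha and is abundant in endothelium, had the largest log2 fold change, 0.87 (SE 0.66, limma adjusted p = 0.738), with 937, 843 and 193 in 3xCR and 2207, 989, 826 and 514 in GPC6 tumors. The Epas1 estimate was 0.14 without 3xCR replicate 4, 0.49 without GPC6 replicate 1 and 0.11 with library weights. Hif1a, which encodes HIF-1 alpha and is controlled mostly at the protein level, had the smallest, -0.40 (SE 0.26, adjusted p = 0.730), with 1365, 1189 and 1702 against 896, 1524, 1042 and 892.

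Among 25 other hypoxia-induced genes 0 passed at an unadjusted p under 0.05, beside 4.66% of all genes, 11 had a log2 fold change above 0, beside 48.3%, and the median was -0.044. Bnip3l, a mitophagy receptor like Bnip3, was the most abundant, with 1348 ± 41.0 (SD, n = 3) in 3xCR and 1319 ± 369 (SD, n = 4) in GPC6 tumors. Ak4, an adenylate kinase of mitochondria, had the largest log2 fold change, 0.43 (SE 0.39, limma adjusted p = 0.763), and leaving out 3xCR replicate 2 gave 0.14, 3xCR replicate 3 0.86. Lox, which crosslinks collagen, had the smallest, -0.94 (SE 1.42, adjusted p = 0.853), and was 323 in 3xCR replicate 4 and 225 in GPC6 replicate 2 against 6.18 to 19.2 in the other 5. Its estimate therefore turned to 0.43 without 3xCR replicate 4.

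The 17 other glycolysis genes had higher mean log2 values in GPC6 tumors in 16 cases, with a median log2 fold change of 0.46, beside 48.3% and -0.019 over all genes tested. The median was 0.27 without GPC6 replicate 1 and 0.28 without 3xCR replicate 2. It was 0.29 without 3xCR replicate 4, 0.30 without GPC6 replicate 3 and 0.69 without 3xCR replicate 3. Counted among the 16 is Eno1 (log2 fold change 0.38), whose row held only 27 to 89 reads per library. Its near-identical copy Eno1b, outside this list, held 75.8 to 134 times as many reads and had a log2 fold change of 0.018. At an unadjusted p under 0.05 there was 1 of 17, against the background of 4.66%, and 0 passed adjustment. The gene was Slc2a3, named here after its values were seen, the glucose transporter GLUT3 of neurons. It had 569.5, 664 and 287 in 3xCR and 1550.3, 682, 1536 and 995 in GPC6 tumors, without overlap, a log2 fold change of 1.24 (SE 0.40, limma adjusted p = 0.730). Eno2, the enolase of neurons, had the largest estimate, 1.61 (SE 0.85, adjusted p = 0.730), with 8940.0 and 4976 in GPC6 replicates 1 and 3 and 460.0 to 1491 in the other 5. Pkm, pyruvate kinase, was the most abundant, with 13483 ± 3222 (SD, n = 3) and 15224 ± 1184.5 (SD, n = 4) (log2 fold change 0.20), and Hk2, the inducible hexokinase, had the smallest estimate (-0.41). The 12 neuronal markers, Eno2 among them, had log2 fold changes above 0 in 12 of 12 with a median of 1.62, and their sum was 8332 to 14209 in 3xCR and 73669, 10518, 40518 and 15982 in GPC6 replicates 1 to 4. The part of neurons in the levels of these glycolysis genes was not tested.

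Of the 8 receptors of VEGF-A and adrenomedullin 1 had an unadjusted p under 0.05, beside 4.66% of all genes, and 0 passed adjustment, 4 had a log2 fold change above 0, and the median was 0.035. Flt1, the decoy-like receptor VEGFR1 of vessels, had 144, 219 and 139.5 in 3xCR and 371, 393, 339.8 and 189 in GPC6 tumors. Its log2 fold change was 0.92 (SE 0.33, limma adjusted p = 0.730), and 3xCR replicate 3 lay above GPC6 replicate 4. Ramp1, a partner of the receptor Calcrl, was the most abundant (891 ± 362 and 947 ± 128), and Calcrl itself had the smallest estimate (-0.46, SE 0.68).

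**Figure D5:**
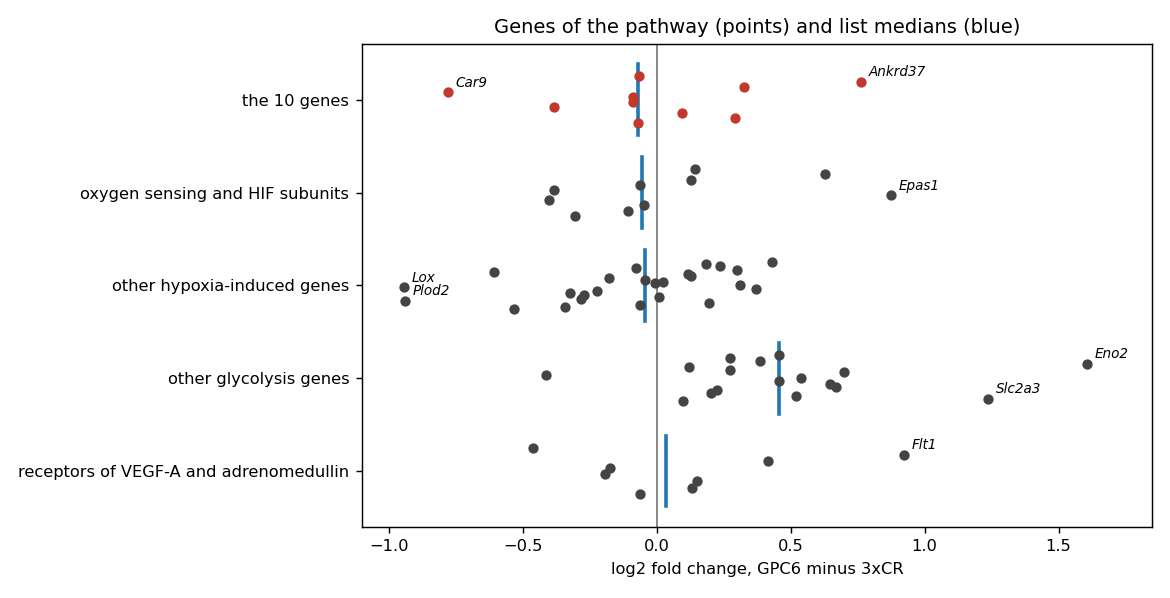
Log2 fold change of GPC6 over 3xCR tumors for each gene (points, red for the 10 genes) of the pathway lists, with list medians as blue lines and some genes labelled. Medians are near 0 except for the other glycolysis genes (0.46), where Eno2 and Slc2a3 lie furthest to the right.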

How the data were processed

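Bulk RNA-Seq of 7 endpoint tumors was used. Per the paper's methods and the submitters' processing notes, the authors aligned stranded poly(A) libraries with STAR (2.5.0a) to mm10, counted reads on genes and divided the counts by DESeq2 (1.20.0) size factors. The deposited values are this normalized signal per gene (normalized counts), linear and without length correction. How reads shared by similar genes were counted is not given in the sources used here. Of 19282 entries, 25 named as calendar dates were left out (0.254% to 0.361% of reads). All values (100%) were whole multiples, within 0.01, of 1 read, which gave back the reads. Compared pairwise, all libraries were distinct (chi-square per gene, 44.7 to 235).

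limma (3.58.1, R 4.3.3, variance trend) compared the groups on log2(normalized count + 1) over 14782 genes with a mean of at least 10, two-sided, with Benjamini-Hochberg adjustment over all of them; fold changes on this scale understate those of low genes. The scripts were tested on simulated data. edgeR (4.0.16) and DESeq2 (1.42.0) on recovered reads and other scalings, filters and library subsets were alternatives. Exon lengths and positions came from GENCODE (GRCm38, 95.8% of symbols matched). The members and gene lists were chosen with earlier results of these data known. Named were all members, in each pathway list the most abundant gene and the genes with the extreme fold changes, the 5 genes nearest to the members' profile, and Gpc6, Trp53 and Nf1. Intervals of counts cover counting error only.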

Additional observations from a re-analysis of the deposited data

Results flagged for a closer look

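Dixon's test at its 95% critical value, which sets the gap between an extreme library and its neighbor against the whole range, was run within the GPC6 group (gene values on the log2 scale). Of 49 quantities, which share genes and libraries, 5 met this, where chance gives about 2.45. Ldha was 2559.6 normalized counts in GPC6 replicate 1, while the remaining GPC6 tumors had 7294 to 8940.5 and the 3xCR tumors 3317 to 10641. The score of the 25 other hypoxia-induced genes (mean log2 deviation from each gene's mean) was -0.46 in GPC6 replicate 1, against 0.061 to 0.14 in the other GPC6 libraries. The score of the proliferation markers was -3.18 in the same library, against 0.42 to 1.15. Mmrn2 was 71.0 normalized counts in GPC6 replicate 3, against 41.7 to 45.4, and the endothelial score was 0.50 in that library, against -0.020 to 0.063. The 3xCR ranges were 16.4 to 93.0 for Mmrn2 and -0.89 to 0.21 for the endothelial score.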

How the results depend on the processing

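Across 18 alternatives the count of members at an adjusted p under 0.05 was 0 throughout. Of 576 values of 32 named genes under these alternatives, 508 kept direction and call, 64 changed sign and 4 passed adjustment (Gpc6 by DESeq2 and with library weights, Eno2 and Slc2a3 with library weights). Over all genes, DESeq2 on recovered reads gave 9 calls at an adjusted and 1793 at an unadjusted p under 0.05, and library weights gave 1962 and 5105. Leaving out each library in turn gave 121 (without 3xCR replicate 4) to 1399 (without GPC6 replicate 2) at an unadjusted p. The members with a log2 fold change above 0 numbered 7 with DESeq2, 7 with library weights, 8 with the replicate block, 8 without GPC6 replicates 1 and 2, and 3 to 9 with each library left out. At an unadjusted p under 0.05 there was 1 member (Ndrg1) with library weights and 1 with the replicate block, and 0 to 1 with each library left out. The median of the other hypoxia-induced genes ran from -0.38 to 0.14 with each library left out, that of oxygen sensing from -0.13 to 0.096 and that of the receptors from -0.065 to 0.15. The cause of these changes was not tested.

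Signs changed as follows (log2 fold changes). With edgeR, Egln3 was 0.024, Adm 0.078, Mmrn2 -0.082 and Esm1 -0.49. With DESeq2, Vegfa was 0.0042, Egln3 0.049, Adm 0.10, Mmrn2 -0.051 and Esm1 -0.47. With library weights, Vegfa was 0.25, Egln3 0.33, Adm 0.082, Lox 0.0088, Calcrl 0.022, Mmrn2 -0.28, Esm1 -0.60, Eno1b -0.079 and Nf1 -0.34. Without GPC6 replicates 1 and 2, Vegfa was 0.15, Egln3 0.22, Adm 0.56, Ldha 0.37, Hk2 0.13 and Ramp1 -0.0058. A pseudocount of 5 gave Esm1 -0.0095, and equal upper quartiles gave Eno1b -0.027. With each library left out, ranges were -0.54 to 0.22 for Vegfa, -1.74 to 0.19 for Car9, -0.34 to 0.22 for Egln3, -0.44 to 0.49 for Adm, -0.55 to 0.32 for Ldha, -0.18 to 0.31 for Pgk1, -0.21 to 0.11 for Bnip3l, -1.99 to 0.43 for Lox, -0.013 to 0.33 for Pkm, -0.74 to 0.057 for Hk2, -0.059 to 0.46 for Ramp1 and -0.97 to 0.070 for Calcrl. They were -0.46 to 0.75 for Mmrn2, -0.079 to 0.64 for Esam, -0.22 to 0.79 for Robo4, -1.29 to 1.23 for Esm1, -0.21 to 0.28 for Eno1b and -0.29 to 0.59 for Trp53.

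With the replicate block, which leaves GPC6 replicate 1 without a partner, Vegfa was 0.22, Egln3 0.22, Adm 0.49, Ldha 0.32 and Hk2 0.057, and 678 genes had an unadjusted p under 0.05. Same-numbered libraries deviated from their group means with correlations of -0.194, 0.118 and 0.296 across genes for numbers 2, 3 and 4. The libraries numbered 4 correlated best with each other, but 3xCR replicate 2 correlated best with GPC6 replicate 1 (0.504). These correlations cannot show whether the numbers mark pairs, because tissue content also differed between libraries. The low counts of Car9, Adm and Ankrd37 limit what depth can show for these.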

Other observations

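Within the other hypoxia-induced genes, the enzymes that modify collagen were looked at after their values were seen. P4ha1, a subunit of collagen prolyl hydroxylase, had 589, 1339.5 and 1341 normalized counts in the 3xCR tumors and 425, 1162, 980.2 and 1199.6 in the GPC6 tumors. Plod2, a lysyl hydroxylase, had 244, 425 and 554 in 3xCR and 38.6, 579, 238 and 301 in GPC6 tumors. P4ha1 and Plod2 were lowest in GPC6 replicate 1, and the groups overlapped in both. P4ha2, also of collagen prolyl hydroxylase, followed another order. It had 17.0, 127 and 243 in 3xCR and 124, 29.6, 83.4 and 57.6 in GPC6 tumors. Its lowest value was thus in 3xCR replicate 2, and GPC6 replicate 1 was the highest of the GPC6 tumors.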
